A study of Homo sapiens with 12 samples.

Results

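Both siRNAs against PTPN14, called PTPN14-1 and PTPN14-2, were pooled and set against a control siRNA in 3 human kidney cell lines. The comparison uses 9 of the 12 libraries of the series: the 6 libraries with a PTPN14 siRNA and the 3 with the control siRNA, chosen by the sample titles. The remaining 3 libraries, with an siRNA labelled LATS, enter only as values set beside the others. HK2 derives from immortalised normal renal epithelium, whereas A704 and CAKI-1 derive from renal cancers. Cells of every group had been transfected by lipid reagent with 25 nM siRNA, and total RNA was taken after 48 h. PolyA RNA was then sequenced. Within each line there was 1 PTPN14-1, 1 PTPN14-2 and 1 control library, so no siRNA was repeated within a line. Separate cultures are not stated in the labels, and a p-value here therefore reflects how far these particular libraries scatter, which may be technical. The titles and the descriptions of the samples number the PTPN14 siRNAs in opposite ways; the numbers in the titles are used, and pooling makes the choice irrelevant to every pooled value.

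PTPN14 is a non-receptor tyrosine phosphatase with a FERM domain that binds the transcriptional coactivator YAP1 through PY motifs. In the Hippo pathway, STK3 and STK4 activate the kinases LATS1 and LATS2, which phosphorylate YAP1 and its relative WWTR1 (TAZ) and so hold them out of the nucleus. In the nucleus, YAP1 and WWTR1 bind TEAD factors at genes such as CYR61 and CTGF. PTPN14 is known to restrain YAP1 in concert with WWC1 (KIBRA), and its own gene is a known YAP1 target. The question put to the libraries is which transcripts moved to 1 side with both siRNAs in all 3 lines.

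Levels are given in FPKM, which is per transcript length and per read depth. Changes are differences of log2(FPKM + 1), which understate the change of low transcripts. Depth estimated from the lowest values was 16.9 to 22.8 M reads over the 9 libraries, and each library had 10818 to 10959 genes over FPKM 1. The RNA integrity number was 10 in every library except the A704 control, at 9.6. All 10 renal epithelial markers were above FPKM 1 in at least 1 library, and their summed level was 337 to 902 FPKM with PTPN14 siRNA and 351 to 928 with control siRNA. Of the 10 proximal tubule markers 5 exceeded FPKM 1 in any library, with sums of 29.7 to 63.7 FPKM with PTPN14 siRNA and 33.1 to 113 with control siRNA. ANPEP made up most of the highest control sum. Its highest level was 62.6 FPKM with PTPN14 siRNA and 111 with control siRNA, whereas that of GGT1 was 31.0 and 32.7 FPKM. The proximal tubule factor HNF4A reached 0.01 FPKM at most and the transporter SLC22A6 was listed at 0 in all 9. The epithelial keratins KRT8 and KRT18 and the renal factor PAX8 were present in every library. Others of the 10 renal epithelial markers were near absent in part of the libraries. In their lowest PTPN14 siRNA library, PAX2 was at 0, EPCAM at 0.03, CDH1 at 0.04 and CDH16 at 0.42 FPKM. Their lowest control libraries had 0, 0.25, 0.04 and 1.04 FPKM. Endothelial markers summed to 0.27 to 1.2 FPKM with PTPN14 siRNA and 0.53 to 0.84 with control siRNA. Of 8 fibroblast markers 4 exceeded FPKM 1 in any library, and LUM made up most of their sum in HK2. Of 8 immune markers only CD68, which is also expressed outside immune cells, exceeded FPKM 1. In bulk RNA, fewer cells with a transcript and less of it per cell cannot be told apart.

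Levels of the siRNA target itself come first. PTPN14 (minus strand of chromosome 1, 214348696 to 214552449 in GRCh38) stood at 4.09 FPKM with PTPN14-1 and 7.14 with PTPN14-2 in A704, against 19.1 with control siRNA. In HK2 it stood at 14.9 FPKM with PTPN14-1 and 19.5 with PTPN14-2, against 51.8 with control siRNA. In CAKI-1 the levels were 4.66 FPKM with PTPN14-1 and 5.78 with PTPN14-2, against 18.5 with control siRNA. Within every line both siRNA libraries were below the control, and PTPN14-1 was the lower of the pair. HK2 started from the highest control level, so its PTPN14-2 library was level with the controls of the other lines. Over both siRNAs PTPN14 fell by 1.62 on the log2 scale (SE 0.15, n = 6 libraries against 3, limma adjusted p = 0.0256).

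PTPN14 was the only gene to pass among the 12257 tested, which is 0.00816% of them; 1143 genes (9.33%) had an unadjusted p under 0.05, of which 587 (4.79%) were higher and 556 (4.54%) lower with PTPN14 siRNA. Its estimate varied between -1.52 and -1.71 as single libraries were left out. Its call ended without the control library of A704 (limma adjusted p = 0.227), HK2 (0.343) or CAKI-1 (0.649). It also ended without HK2 PTPN14-1 (0.122), CAKI-1 PTPN14-1 (0.133) or CAKI-1 PTPN14-2 (0.0908). Treating the siRNAs as separate levels and testing their mean takes the difference between them out of the spread, and 45 genes then passed (0.367%; 23 higher, 22 lower). All values below are from the fit that pools the siRNAs, unless stated.

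**Figure D1:**
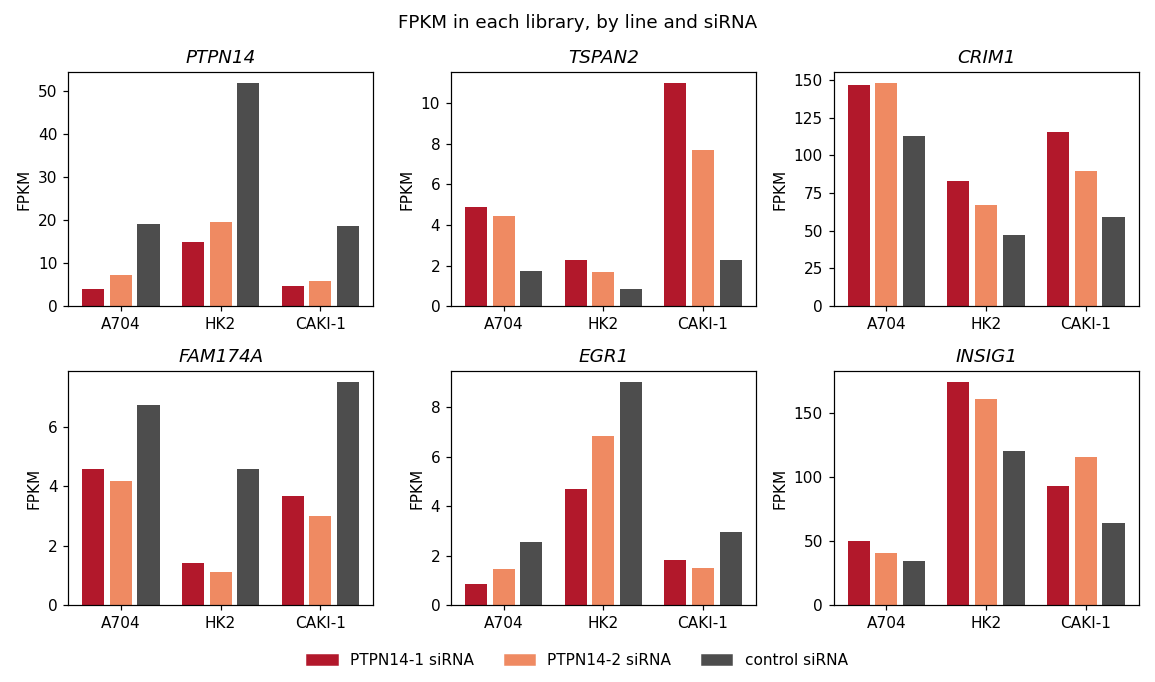
FPKM (vertical axis, linear, from 0) of 6 genes in each of the 9 libraries, by cell line and siRNA, with 1 bar per library and no error bar because each siRNA has 1 library per line. PTPN14, FAM174A and EGR1 are lower in both PTPN14 siRNA bars than in the control bar of the same line, and TSPAN2, CRIM1 and INSIG1 are higher.

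To find transcripts that moved to 1 side throughout, each PTPN14 siRNA library was set against the control library of its own line. All 6 differences had the same sign in 1621 genes (13.2% of those tested), 843 higher and 778 lower. Most of these differences were small: the pooled change was under 1.2-fold in 1215 of the 1621 genes, and at least 1.5-fold in 26. Requiring every one of the 6 differences to be at least 1.2-fold left 22 genes (0.179%), 11 higher and 11 lower (0.0897% each). The 2 siRNAs of a line share a control library, so the 6 differences are not independent. The weakest of the 6 log2 differences was 0.27 in FBXO8 and PIK3R3 just inside the limit, and 0.26 in MICB and COL12A1 just outside it. Among lower genes it was -0.27 in ASB1 and PABPC1L just inside, and -0.26 in TNS2 and SYCE1L just outside. Apart from PTPN14, none of the 22 passed the pooled test, with limma adjusted p between 0.299 and 0.336. Of the 22, 16 were among the 45 that passed with each siRNA as its own level, where TSPAN2 had a limma adjusted p of 0.0290 and FAM174A one of 0.0258. That fit uses the same 9 libraries by which the 22 were picked, so the overlap is no separate support.

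The size of the response differed between libraries. Genes at least 1.5-fold from the own-line control numbered 498 (A704), 542 (HK2) and 303 (CAKI-1) with PTPN14-1, and 122, 222 and 243 in the same order of lines with PTPN14-2. PTPN14-1 thus gave more such genes in each line, and it also gave the lower PTPN14 level in each line. Whether these are connected was not tested.

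The promoters of 5 of these genes are shown because they are the target, the genes with the largest pooled changes, and the genes of the 22 whose promoters hold either of the motifs searched. They run from 250 bases before to 50 bases after the start that RefSeq annotates, build GRCh38.p14. The gene spans printed here are GENCODE's, whose ends differ from the RefSeq starts. For PTPN14, YOD1 and FAM174A the RefSeq start lies inside the span. Capitals mark the TEAD core GGAATG on either strand (CATTCC on the other) and the CArG box bound by serum response factor. PTPN14 is at chr1:214551553-214551852 on the minus strand and TSPAN2 at chr1:115089454-115089753 on the minus strand. YOD1 is at chr1:207051159-207051458 on the minus strand, FAM174A at chr5:100535124-100535423 on the plus strand and EGR1 at chr5:138465229-138465528 on the plus strand.
PTPN14: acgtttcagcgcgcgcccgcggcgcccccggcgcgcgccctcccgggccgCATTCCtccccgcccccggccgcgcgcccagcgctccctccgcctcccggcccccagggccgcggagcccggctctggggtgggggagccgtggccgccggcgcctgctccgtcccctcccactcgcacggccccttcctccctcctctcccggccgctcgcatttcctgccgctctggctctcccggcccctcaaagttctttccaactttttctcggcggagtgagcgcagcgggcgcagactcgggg
TSPAN2: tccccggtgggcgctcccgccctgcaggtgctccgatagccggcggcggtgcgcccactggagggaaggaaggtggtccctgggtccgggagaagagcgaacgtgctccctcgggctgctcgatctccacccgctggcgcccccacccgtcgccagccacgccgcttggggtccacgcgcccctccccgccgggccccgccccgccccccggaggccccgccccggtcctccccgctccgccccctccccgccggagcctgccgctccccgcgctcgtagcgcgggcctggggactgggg
YOD1: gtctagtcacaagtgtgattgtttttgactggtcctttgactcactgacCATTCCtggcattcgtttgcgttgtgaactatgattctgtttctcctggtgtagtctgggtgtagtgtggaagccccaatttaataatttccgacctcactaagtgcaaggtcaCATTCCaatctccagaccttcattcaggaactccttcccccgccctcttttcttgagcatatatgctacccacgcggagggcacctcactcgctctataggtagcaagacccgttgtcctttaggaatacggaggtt
FAM174A: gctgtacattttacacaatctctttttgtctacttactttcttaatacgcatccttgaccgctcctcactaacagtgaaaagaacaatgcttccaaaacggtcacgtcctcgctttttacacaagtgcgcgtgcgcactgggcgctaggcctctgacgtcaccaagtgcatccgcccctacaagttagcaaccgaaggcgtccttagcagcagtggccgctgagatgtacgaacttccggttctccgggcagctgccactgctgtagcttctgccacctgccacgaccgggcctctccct
EGR1: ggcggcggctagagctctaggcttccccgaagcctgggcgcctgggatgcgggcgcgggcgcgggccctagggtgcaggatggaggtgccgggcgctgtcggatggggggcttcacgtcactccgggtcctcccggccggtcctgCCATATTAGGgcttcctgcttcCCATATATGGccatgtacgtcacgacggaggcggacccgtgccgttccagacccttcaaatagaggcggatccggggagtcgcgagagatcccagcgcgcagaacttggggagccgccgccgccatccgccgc
The PTPN14 window holds 1 TEAD core, 200 bases before the start, and the YOD1 window holds 2, at 201 and 87 bases before it. The EGR1 window holds 2 CArG boxes, at 105 and 83 bases before the start. TSPAN2 and FAM174A have neither, which says only that these letters are not in the windows shown. Of all 27305 promoters of this length, 14.2% hold the TEAD core and 1.31% the CArG box; among tested genes with a promoter in the table the shares are 10.9% and 1.08%. Of the 11 higher genes 10 had a promoter in the table and 1 of these, YOD1, held a TEAD core. Of the 11 lower genes only 8 had one, too few for a comparison of shares.

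Among the 11 genes higher in all 6 libraries, TSPAN2, PRSS23 and CRIM1 had the largest pooled changes. TSPAN2 (chromosome 1, 115048011 to 115089500, minus strand), a tetraspanin of the cell membrane, had 4.90 and 4.44 FPKM with PTPN14-1 and PTPN14-2 in A704, against 1.73 with control siRNA. It had 2.27 and 1.67 FPKM with these siRNAs in HK2, against 0.83 with control siRNA. In CAKI-1 it had 11 and 7.71 FPKM, against 2.28 with control siRNA. The pooled log2 change was 1.13 (SE 0.17, adjusted p = 0.299) and was the largest upward change of the 22. Every siRNA library of CAKI-1 was further from its control than any of A704, and HK2 differed least. With LATS siRNA, set against the same control libraries, its log2 difference was 0.87 (A704), 0.58 (HK2) and 1.36 (CAKI-1).

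CRIM1 (chromosome 2, 36355926 to 36551135, plus strand), a transmembrane protein that binds BMP ligands and a listed YAP1 target, was at 147 and 148 FPKM with PTPN14-1 and PTPN14-2 in A704, against 113 with control siRNA. In HK2 it was at 82.7 and 66.9 FPKM, against 47.1 with control siRNA. In CAKI-1 it was at 115 and 89.7 FPKM, against 59.0 with control siRNA. The siRNAs were level with each other in A704, whereas PTPN14-1 was the higher in HK2 and CAKI-1. Its pooled log2 change was 0.60 (SE 0.11, adjusted p = 0.305), and with LATS siRNA its differences were 0.06 (A704), 0.20 (HK2) and 0.43 (CAKI-1). PRSS23, a secreted serine protease, was at 45.9 and 38.0 FPKM in A704 with PTPN14-1 and PTPN14-2, against 26.5 with control siRNA. It was at 38.2 and 27.9 FPKM in HK2, against 22.8, and at 14.1 and 15.2 FPKM in CAKI-1, against 7.60 with control siRNA. Its pooled log2 change was 0.67 (SE 0.12, adjusted p = 0.305).

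YOD1 (chromosome 1, 207043849 to 207052980, minus strand), a deubiquitinase of the OTU family, showed close values for both siRNAs in each line. Its level was 5.28 and 5.42 FPKM with PTPN14-1 and PTPN14-2 in A704, against 4.08 with control siRNA. In HK2 it was 30.9 and 29.1 FPKM, against 20.3, and in CAKI-1 25.2 and 26.9 FPKM, against 15.7 with control siRNA. The pooled log2 change was 0.52 (SE 0.08, adjusted p = 0.299). With LATS siRNA the log2 difference of YOD1 was -0.05 (A704), 0.13 (HK2) and 0.06 (CAKI-1), next to 0.58 and 0.50 for the PTPN14 siRNAs in HK2.

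The other 7 higher genes had pooled log2 changes of 0.33 to 0.56. PAM, which amidates peptide hormones, was at 103 and 110 FPKM with PTPN14-1 and PTPN14-2 in A704, against 80.0 with control siRNA. LACTB, a mitochondrial protein related to bacterial beta-lactamases, had a pooled change of 0.56 (SE 0.14) and was further from control with PTPN14-1 than with PTPN14-2 in each line. AVL9, a protein linked to late secretory traffic in yeast, had log2 differences of 0.31 to 0.45 over the 6 libraries. LITAF, a protein of late endosomes, had a pooled change of 0.34 (SE 0.06), and the amino acid transporter gene SLC7A6 one of 0.33 (SE 0.06). FBXO8, an F-box protein, and PIK3R3, a regulatory subunit of PI 3-kinase, had pooled changes of 0.38 (SE 0.07) and 0.37 (SE 0.08). MICB, a ligand of the NK cell receptor NKG2D just outside the limit, had a pooled change of 0.53 (SE 0.11), but its symbol stands on 8 lines of the table, so reads may be split between copies.

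**Figure D2:**
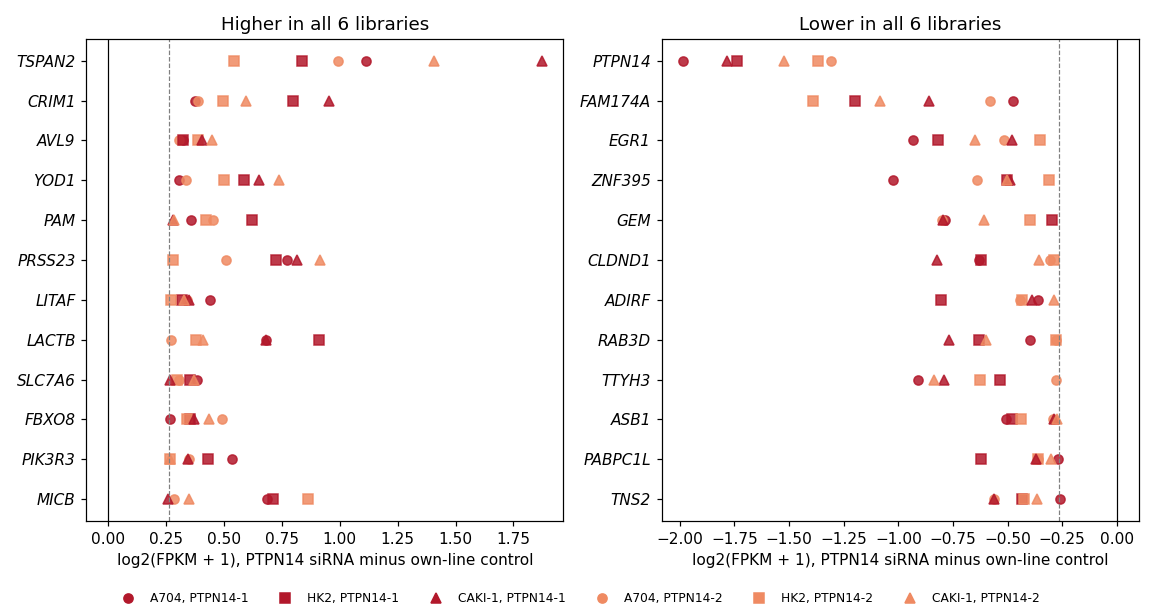
Difference in log2(FPKM + 1) between each PTPN14 siRNA library and the control library of its own line (horizontal axis) for the 12 genes highest and the 12 lowest in all 6 libraries, 1 symbol per library. Dashed lines mark 1.2-fold and solid lines no difference; TSPAN2 reaches 1.87 in CAKI-1 with PTPN14-1, and MICB and TNS2 have their weakest library just short of the dashed lines.

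Among the 11 genes lower in all 6 libraries, FAM174A (chromosome 5, 100535305 to 100586741, plus strand), a small membrane protein, came next to PTPN14. It had 4.57 and 4.17 FPKM with PTPN14-1 and PTPN14-2 in A704, against 6.74 with control siRNA. In HK2 it had 1.43 and 1.13 FPKM, against 4.58, and in CAKI-1 3.69 and 3.01 FPKM, against 7.50 with control siRNA. PTPN14-2 gave the lower level in each line, the reverse of the order for PTPN14. Its pooled log2 change was -0.93 (SE 0.13, adjusted p = 0.299). With LATS siRNA the log2 difference was -0.08 (A704), -0.28 (HK2) and -0.14 (CAKI-1).

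EGR1 (chromosome 5, 138465490 to 138469315, plus strand), an immediate early transcription factor induced by ERK and serum response factor, was at 0.86 and 1.48 FPKM with PTPN14-1 and PTPN14-2 in A704, against 2.55 with control siRNA. It was at 4.69 and 6.85 FPKM in HK2, against 9.02, and at 1.83 and 1.52 FPKM in CAKI-1, against 2.95 with control siRNA. Its pooled log2 change was -0.62 (SE 0.13, adjusted p = 0.305), and with LATS siRNA it differed from control by -0.72 (A704), -0.19 (HK2) and -0.46 (CAKI-1). GEM, a small GTPase that inhibits voltage-gated calcium channels, was at 24.1 and 27.6 FPKM with PTPN14-1 and PTPN14-2 in CAKI-1, against 42.5 with control siRNA. It differed least in HK2, by -0.29 and -0.40 on the log2 scale, and its pooled change was -0.61 (SE 0.09, adjusted p = 0.299).

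TTYH3, a membrane protein of the tweety family, and ZNF395, a zinc finger protein, stood on opposite sides with PTPN14 and with LATS siRNA. TTYH3 was at 15.2 and 14.7 FPKM with PTPN14-1 and PTPN14-2 in CAKI-1, against 27.0 with control siRNA, and its pooled log2 change was -0.66 (SE 0.13). With LATS siRNA TTYH3 differed from the same controls by 0.46 (A704), 0.14 (HK2) and 0.54 (CAKI-1). ZNF395 was at 35.4 and 46.5 FPKM with PTPN14-1 and PTPN14-2 in A704, against 72.9 with control siRNA, with a pooled change of -0.58 (SE 0.11). Its LATS siRNA differences were 0.07 (A704), 0.58 (HK2) and 0.24 (CAKI-1). The difference between the targets was not tested for these genes. The remaining lower genes had pooled changes of -0.38 to -0.50. They were CLDND1, a claudin-domain protein, RAB3D, a GTPase of regulated secretion, ADIRF, a regulator of fat cell formation, ASB1, a SOCS-box protein, and PABPC1L, a poly(A)-binding protein. ADIRF was under FPKM 1 in all 3 HK2 libraries, so its difference there is one of low values. TNS2, a tensin of focal adhesions just outside the limit, had a pooled change of -0.44 (SE 0.09).

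**Figure D3:**
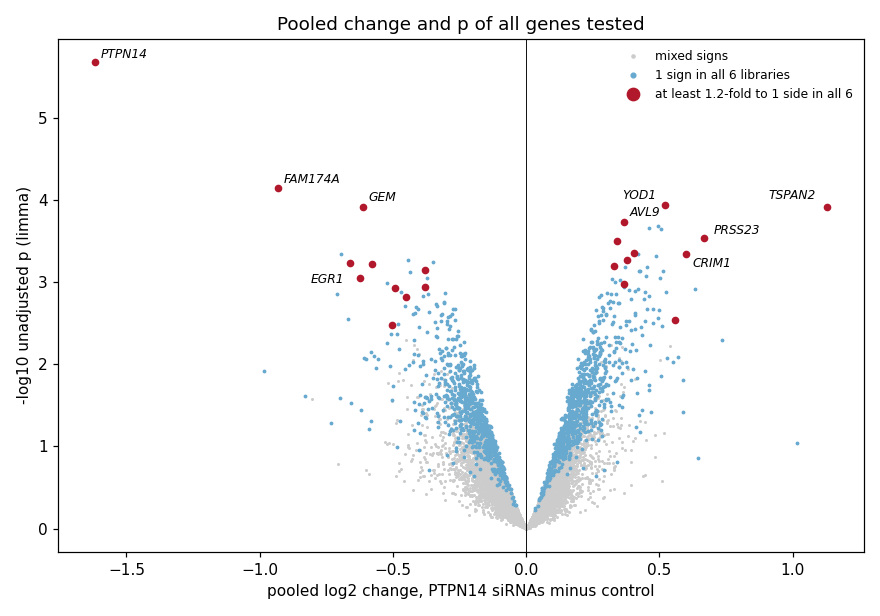
Pooled log2 change (horizontal axis, PTPN14 siRNAs minus control) against -log10 of the unadjusted limma p (vertical axis) for the 12257 genes tested, 1 point per gene. Red points are the 22 genes at least 1.2-fold to 1 side in all 6 libraries, blue points the others of the 1621 with 1 sign, and grey points the genes with mixed signs; PTPN14 alone passed the adjusted threshold.

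The Hippo pathway itself was described next, from a list of PTPN14 and kinase-module genes. Besides PTPN14, none of its 23 tested members passed. At an unadjusted p under 0.05, 3 (13.0%, against 4.79% of all genes) were higher. The 1 lower, PTPN14, made 4.35%, near the 4.54% of all genes. In all 6 libraries 7 were higher (30.4%, against 6.88% of all genes). The median of the pooled log2 changes was 0.11 for the list and 0.00 for all genes, and the list's was 0.06 without HK2 PTPN14-1 and 0.07 without the HK2 control. By library the list's median was 0.01 and 0.02 with PTPN14-1 and PTPN14-2 in A704, 0.235 and 0.05 in HK2, and 0.20 and 0.12 in CAKI-1. WWC1 (KIBRA), the scaffold that acts with PTPN14, was at 42.3 and 45.4 FPKM with PTPN14-1 and PTPN14-2 in A704, against 36.2 with control siRNA. In HK2 it was at 14.8 and 12.8 FPKM, against 10.6, and in CAKI-1 21.4 and 23.7 FPKM, against 15.7 with control siRNA. All 6 libraries thus lay above their controls, with a pooled log2 change of 0.37 (SE 0.08, adjusted p = 0.305). AJUBA, a LIM protein that inhibits LATS kinases, had 0.46 (SE 0.16), with its largest differences in CAKI-1 at 1.14 and 0.67. AMOTL2, an angiomotin that binds YAP1, had 0.43 (SE 0.18) and differed by 0.50, 0.64 and 0.96 with PTPN14-1 but by 0.06, 0.12 and 0.32 with PTPN14-2 in A704, HK2 and CAKI-1.

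The coactivators did not pass either. YAP1 had a pooled log2 change of -0.04 (SE 0.08). WWTR1 was higher in all 6 libraries, with 0.33 (SE 0.11, adjusted p = 0.452): it was at 228 and 171 FPKM with PTPN14-1 and PTPN14-2 in HK2, against 144 with control siRNA, and at 78.5 and 82.6 in A704, against 76.3. PTPN21, the phosphatase most closely related to PTPN14, had 0.02 (SE 0.08).

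Of 29 tested YAP and TAZ target genes, 8 (27.6%) were higher at an unadjusted p under 0.05, against 4.79% of all genes. The 1 lower, PTPN14, made 3.45%, against 4.54% of all genes. In all 6 libraries 9 were higher (31.0%, against 6.88% of all genes). PTPN14 belongs to this list and is the siRNA target, so it is no independent member. WWC1, AJUBA and AMOTL2, described above with the Hippo pathway, also belong to it, so these 2 lists are not independent. The median of the pooled log2 changes of the YAP and TAZ targets was 0.24. By library the list's median was 0.31 (A704), 0.42 (HK2) and 0.51 (CAKI-1) with PTPN14-1, but -0.01, 0.09 and 0.07 in these lines with PTPN14-2. The 3 PTPN14-1 medians were all above the 3 PTPN14-2 medians; the difference between the siRNAs was not tested. CRIM1 and WWC1, described above, had the smallest p of the list after PTPN14. CYR61, CTGF and MYOF were named after their values were seen. CYR61, a secreted matricellular protein, was at 130 and 74.4 FPKM with PTPN14-1 and PTPN14-2 in CAKI-1, against 63.1 with control siRNA, and its pooled change was 0.42 (SE 0.18). CTGF, a related protein, had 0.24 (SE 0.16) and was below control with PTPN14-2 in A704 (-0.07) and CAKI-1 (-0.08). MYOF, a membrane repair protein, differed by 0.22 to 0.38 in all 6 libraries, so both siRNAs and all lines were close.

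**Figure D4:**
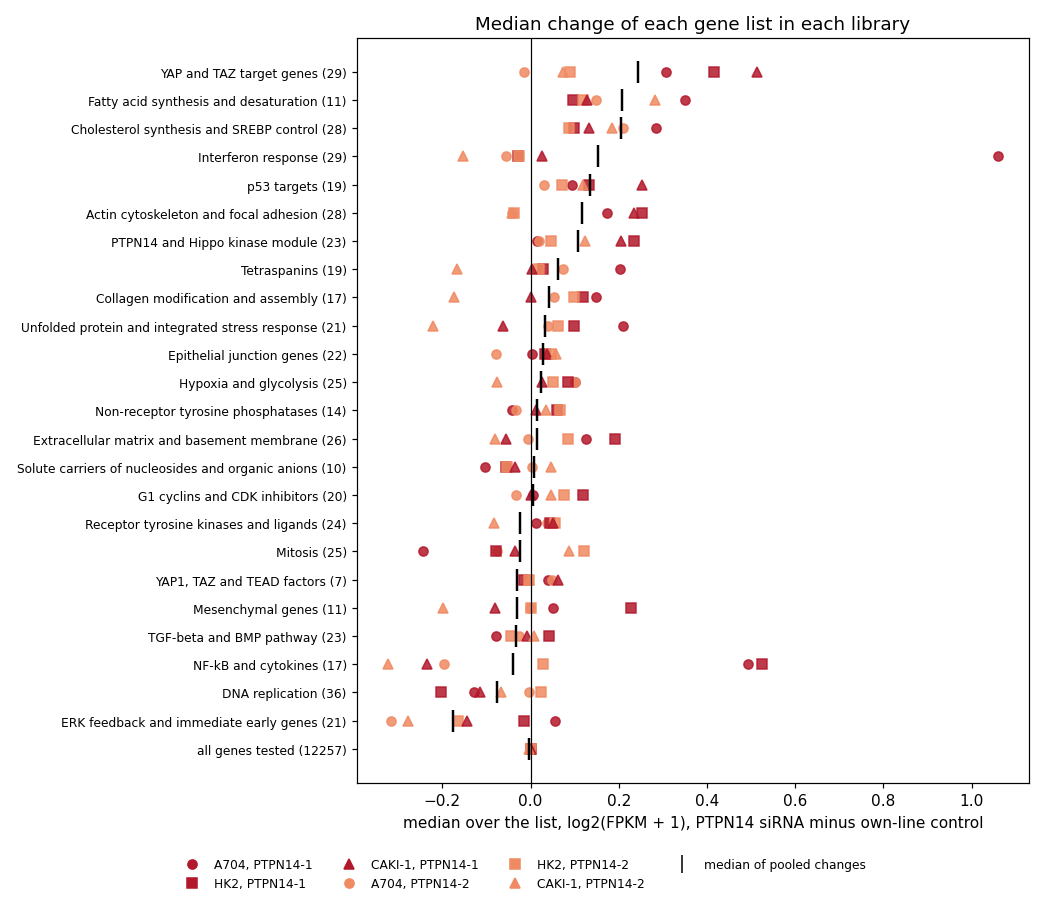
Median over each gene list of the difference in log2(FPKM + 1) between a PTPN14 siRNA library and its own-line control (horizontal axis), 1 symbol per library, for 24 lists and all genes, with the number of tested members in brackets. Black bars are medians of the pooled changes; the cholesterol list lies between 0.09 and 0.28 in every library, the YAP and TAZ targets lie apart by siRNA, and the interferon list reaches 1.06 in A704 PTPN14-1 alone.

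The median of the cholesterol synthesis genes was above that of all genes with both siRNAs in every line, although no member passed. Of 28 tested members, 12 (42.9%) were higher and 0 lower at an unadjusted p under 0.05, against 4.79% and 4.54% of all genes. In all 6 libraries 14 were higher (50.0%, against 6.88% of all genes). The list's median was 0.28 and 0.21 with PTPN14-1 and PTPN14-2 in A704, 0.10 and 0.09 in HK2, and 0.13 and 0.18 in CAKI-1. INSIG1, which holds SREBP in the endoplasmic reticulum, was at 50.2 and 40.9 FPKM in A704 with these siRNAs, against 34.5 with control siRNA. In HK2 it was at 174 and 161 FPKM, against 120, and in CAKI-1 92.7 and 116 FPKM, against 64.1 with control siRNA. Its pooled log2 change was 0.51 (SE 0.10, adjusted p = 0.305), and both siRNA libraries were above the control of each line. DHCR7, a late enzyme of the pathway, had 0.33 (SE 0.07), and SQLE, which epoxidises squalene, 0.39 (SE 0.09). Leaving out the A704 control library, which takes both A704 differences with it, gave a list median of 0.12, against 0.21 with all 9 libraries. With LATS siRNA, set against the same control libraries, the list's median was also above 0, at 0.15 (A704), 0.06 (HK2) and 0.11 (CAKI-1). Like the other lists, this one was chosen with earlier results of these data known.

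Fatty acid genes gave a like picture on fewer members. Of 11 tested, 4 (36.4%) were higher and 0 lower at an unadjusted p under 0.05, against 4.79% and 4.54% of all genes. The same number, 4, were higher in all 6 libraries (36.4%, against 6.88% of all genes). The list's median change was 0.21, and 0.09 without the A704 control. With LATS siRNA its median was 0.11 (A704), 0.05 (HK2) and 0.14 (CAKI-1). ACACA, the carboxylase that makes malonyl-CoA, had 0.26 (SE 0.08), although its symbol stands on 2 lines of the table. ELOVL5, an elongase of polyunsaturated fatty acids, had 0.21 (SE 0.06), and ME1, an NADPH-producing malic enzyme, 0.35 (SE 0.11). SREBF2, the factor that drives the cholesterol genes, had 0.27 (SE 0.09).

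ERK feedback and immediate early genes lay on the lower side. Of 21 tested, 6 (28.6%) were lower and 0 higher at an unadjusted p under 0.05, against 4.54% and 4.79% of all genes. In all 6 libraries 5 were lower (23.8%, against 6.35% of all genes). The median change was -0.18, and -0.10 without either the A704 or the HK2 library of PTPN14-2 and -0.11 without the A704 control. The list's library medians were 0.06 (A704), -0.01 (HK2) and -0.14 (CAKI-1) with PTPN14-1, and -0.32, -0.16 and -0.28 in these lines with PTPN14-2, so the list stood lower with PTPN14-2 in each line. PHLDA1, a pleckstrin-homology protein, had a pooled change of -0.49 (SE 0.13) and DUSP6, the phosphatase that inactivates ERK, -0.51 (SE 0.13). DUSP6 was at 17.5 and 25.0 FPKM with PTPN14-1 and PTPN14-2 in HK2, against 35.6 with control siRNA. With LATS siRNA, DUSP6 differed by -0.17 (A704), -0.84 (HK2) and -0.54 (CAKI-1).

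Genes of growth and shape gave mixed or small values. Of 36 DNA replication genes 5 (13.9%) had a pooled change above 0, against 48.7% of all genes, and the median was -0.08. By library the list's median was -0.13 (A704), -0.20 (HK2) and -0.11 (CAKI-1) with PTPN14-1. With PTPN14-2 it was -0.004, 0.02 and -0.07 in these lines, so the lower values came mostly with PTPN14-1. At an unadjusted p under 0.05, 4 (11.1%) were lower and 2 (5.56%) higher, against 4.54% and 4.79% of all genes. CDT1, a licensing factor, had -0.30 (SE 0.10), and MCM2, a subunit of the replicative helicase, -0.18 (SE 0.07). Of 25 mitosis genes 3 (12%, against 4.54% of all genes) were lower and 0 higher at an unadjusted p under 0.05. The list's median was -0.02. By library it was -0.24 (A704), -0.08 (HK2) and -0.04 (CAKI-1) with PTPN14-1. With PTPN14-2 it was -0.08, 0.12 and 0.09 in these lines, so the siRNAs stood on opposite sides in HK2 and CAKI-1. CDC20 had -0.24 (SE 0.07). Actin and focal adhesion genes had library medians of 0.17 (A704), 0.25 (HK2) and 0.23 (CAKI-1) with PTPN14-1 and -0.04 in each line with PTPN14-2. Of these 28 genes 4 (14.3%, against 6.88% of all genes) were higher and 2 (7.14%, against 6.35%) lower in all 6 libraries; the lower share is near that of all genes. MYL9, the regulatory light chain of smooth and non-muscle myosin, had 0.28 (SE 0.09). Among 17 collagen-modifying genes, PLOD2, a lysyl hydroxylase, had 0.43 (SE 0.08) and P3H2, a prolyl hydroxylase, 0.41 (SE 0.09), both higher in all 6 libraries. In this list 4 genes (23.5%, against 6.88% of all genes) were higher in all 6 libraries and 0 lower. Yet only 9 (52.9%, against 48.7% of all genes) had a pooled change above 0. The list's median was 0.04, and in CAKI-1 it was 0.00 with PTPN14-1 and -0.17 with PTPN14-2.

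Interferon response genes were high in 1 library. Of 29 tested members 25 (86.2%) had a pooled change above 0, against 48.7% of all genes. Yet none had an unadjusted p under 0.05 in either direction. In all 6 libraries 1, CXCL10, was higher (3.45%, against 6.88% of all genes). The list's median was 1.06 in A704 with PTPN14-1, and -0.15 to 0.03 in the other 5 libraries. Its pooled median was 0.15. It was -0.08 without A704 PTPN14-1 and -0.06 without the A704 control, but 0.26 without A704 PTPN14-2, 0.25 without the HK2 control and 0.24 without the CAKI-1 control. With LATS siRNA the list's median in A704 was 0.70, against the same control library.

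Whether the pooled change differed between lines was tested as a line-by-target interaction. None of the 12257 genes passed, 105 (0.857%) had an unadjusted p under 0.05 and the smallest limma adjusted p was 1.00. With 3 residual degrees of freedom, all from the siRNA pairs, this does not show that the lines acted alike. The genes with the smallest unadjusted p were mostly transcripts present in only 1 or 2 of the lines. COL4A1, a basement membrane collagen, was at 130 and 116 FPKM with PTPN14-1 and PTPN14-2 in HK2, against 62.6 with control siRNA. In CAKI-1 it was at 78.9 and 77.3 FPKM, against 52.4, and in A704 at 0.20 and 0.16 FPKM, against 0.20 with control siRNA. It was scarcely detected in A704. C19orf60 was at 3.30 and 2.80 FPKM in HK2 with the PTPN14 siRNAs, against 7.22 with control siRNA, and at 2.98 with LATS siRNA. In A704 its log2 differences were 0.02 and -0.02, and in CAKI-1 -0.04 and 0.11, so the HK2 control library stands apart from the other libraries of its line. LMO1 and DGKI, which were near 0 in A704 and HK2, were lower with both siRNAs in CAKI-1, LMO1 at 2.17 and 1.77 FPKM against 5.01 with control siRNA. ATP6V0D2 and NRARP were lower in HK2, NRARP at 1.43 and 1.08 FPKM against 3.04 with control siRNA.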

How the data were processed

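Libraries were made with a KAPA stranded RNA-seq kit from total RNA, per the labels' protocols. A single FPKM table, with values to the hundredth and 1 line per gene entry, was deposited by the authors; its unit is inferred, because values are fractional and their lowest steps shrink as genes lengthen. The submitters' processing notes name STAR 2.4.0g1 as a tool and GRCh38.p1 as the genome build. How reads were counted per gene (tool, annotation, strand) and scaled is not given in the sources used here. Summed FPKM was 343776 to 394872 per library. Depth was estimated from the whole-read steps of low single-exon genes, so it is approximate. The table holds 20979 entries with 19156 symbols; 29 entries that carry a date in place of a symbol were dropped, and 355 tested entries have a symbol that stands on more than 1 line.

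The 12257 genes above FPKM 1 in at least 3 of the 12 libraries were tested as log2(FPKM + 1) in limma 3.58.1 (R 4.3.3; statmod 1.5.0), using trended, robust moderation and Benjamini-Hochberg adjustment over all of them at 0.05. Terms were cell line, as a block, and target (PTPN14, control), over 9 libraries, with 5 residual degrees of freedom. Libraries of 1 line pair because they are the same cell line. The line-by-target interaction used the same libraries. The scripts were tested on simulated data.

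Genes named are PTPN14, PTPN21, YAP1, WWTR1, those past the threshold, the 12 higher and 12 lower with the largest weakest difference over the 6 libraries, the smallest p of each list (up to 3 genes), and the 6 smallest of the interaction. AMOTL2, MYOF, CYR61, CTGF, SREBF2 and DUSP6 fall outside this rule and were named after their values were seen. The members and lists were chosen with earlier results of these data known. Alternatives tried were the pseudocount, the filter, quantile normalisation, moderation, the block, the siRNAs as separate levels, the LATS libraries in the fit, other fold limits, and leaving out each library or line.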

Additional observations from a re-analysis of the deposited data

Results flagged for a closer look

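In the 6 differences from own-line control, 5 of 93 genes examined and the medians of 2 of 24 lists had 1 library far from the rest, its gap to the nearest over the whole range exceeding Dixon's limit; chance alone flags about 1 in 20 groups. In PABPC1L (ratio 0.72) and ADIRF (0.70) the library apart was HK2 PTPN14-1, with log2 differences of -0.62 and -0.80, and the other 5 libraries were also below their controls. In AREG, an EGF receptor ligand (0.68), HK2 PTPN14-2 lay above its control by 0.41, while the other 5 libraries were between -1.34 and -0.78. In CNN3, an actin-binding calponin (0.84), A704 PTPN14-1 was at 0.58 and the others at 0.16 to 0.23. In CXCL10, an interferon-induced chemokine (0.77), A704 PTPN14-1 was at 2.53 and the others at 0.07 to 0.64. The interferon list's median (0.85) was apart in A704 PTPN14-1, at 1.06. The median of receptor tyrosine kinases and ligands (0.70) was apart in CAKI-1 PTPN14-2, at -0.08, while the other libraries were between 0.01 and 0.06.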

How the results depend on the processing

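The count of genes past the pooled threshold, 1 as reported, was 0 without the filter on low values, 0 with no replicate block and 0 without line A704, HK2 or CAKI-1, 3 with all 12 libraries in the fit and 45 with each siRNA as its own level; leaving out single libraries gave 0 to 1. TSPAN2 and FAM174A joined PTPN14 in the 12-library fit (limma adjusted p = 0.0382 each). The count of genes at least 1.2-fold to 1 side in all 6 libraries, 22 as reported, was 55 with a pseudocount of 0.1, 1 with a limit of 1.5-fold and 1621 by sign alone. It was 135 without A704, 55 without HK2, 73 without CAKI-1 and 28 to 135 with single libraries left out; fewer differences have to pass there, so higher counts follow from the construction. It was 33 with a pseudocount of 0.5 and 18 after quantile normalisation. The interaction count, 0 as reported, was 2 without the filter and 0 in the other settings. For the other moves the cause was not tested. PTPN14's adjusted p without the filter was 0.202. Over 1841 pairs of a named gene and a setting, from 88 genes, none reversed a call. Of these pairs, 1808 kept their side of the threshold, with the same direction or a change of sign by less than the SE. Only PTPN14 passed as reported. For the other genes, keeping their side therefore meant staying short of the threshold, which says little about how stable their changes are. YAP1, for example, went from -0.04 to 0.007 without the A704 control. PTPN21 went from 0.02 to -0.02 without HK2 PTPN14-1. A further 18 newly passed, 11 no longer passed, all of PTPN14, and 4 changed sign by more, in values near 0, of TWIST1 and VGLL4. Leave-one-out medians of the lists were chosen after seeing the data. The cholesterol list ran from 0.12 to 0.25, fatty acids from 0.09 to 0.26, YAP and TAZ targets from 0.17 to 0.30, the Hippo module from 0.06 to 0.15, ERK feedback from -0.19 to -0.10 and actin genes from 0.06 to 0.16. The interferon list (-0.08 to 0.26) and NF-kB genes (-0.14 to 0.23) crossed 0. So did other lists with medians near 0, among them mitosis (-0.07 to 0.05), collagen modification (-0.03 to 0.12), extracellular matrix (-0.03 to 0.08) and the solute carriers (-0.05 to 0.01). Depth is known only as an estimate, so no counting interval is given, and 1 library per siRNA and line limits every comparison.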

Other observations

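Membrane transporters of nucleosides and organic anions held 2 genes that were lower in all 6 libraries among 10 tested (20.0%), against 6.35% of all genes. The list's median change was 0.01. Like the others, this list was chosen with earlier results of these data known, so its share is no separate support. SLCO4A1, an organic anion transporter, was at 65.7 and 64.5 FPKM with PTPN14-1 and PTPN14-2 in HK2, against 115 with control siRNA. In CAKI-1 it was at 3.44 and 4.22 FPKM, against 7.93, and in A704 at 18.9 and 13.4 FPKM, against 21.1 with control siRNA. Its pooled log2 change was -0.69 (SE 0.13, limma adjusted p = 0.305), so it did not pass. SLC29A1, a nucleoside transporter, had -0.35 (SE 0.07) and log2 differences of -0.47 to -0.25.

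Of 19 p53 target genes 3 (15.8%, against 4.79% of all genes) were higher and 1 (5.26%, near the 4.54% of all genes) lower at an unadjusted p under 0.05, with a median change of 0.14. CCNG1, cyclin G1, was at 185 and 218 FPKM with PTPN14-1 and PTPN14-2 in CAKI-1, against 133 with control siRNA, and had a pooled log2 change of 0.46 (SE 0.10). CDKN1A, the CDK inhibitor p21, had 0.29 (SE 0.09), higher in 6 of 6 libraries. CDH2, N-cadherin, had 0.32 (SE 0.07) and was also higher in 6 of 6. Of 11 tested mesenchymal genes, however, only 4 (36.4%) had a pooled change above 0, against 48.7% of all genes. The median of that list was -0.03, and 1 member (9.09%, against 6.88% of all genes) was higher in all 6 libraries. DDIT3, a factor of the integrated stress response, had -0.48 (SE 0.12), and VEGFA, an angiogenic growth factor, -0.37 (SE 0.15). Both were lower in 6 of 6 libraries and neither passed. Of 21 tested unfolded protein and integrated stress genes, 13 (61.9%) had a pooled change above 0, against 48.7% of all genes. Of 25 tested hypoxia and glycolysis genes, 15 (60.0%) did. The list medians were 0.03 and 0.02, so neither list as a whole was lower.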
